A study of Mus musculus with 5 samples.

Results

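The cells described here are F13a1+ Ass1/Itga1+ cells of mouse bone marrow (BM), proposed as monocyte-committed progenitors of the monocyte-dendritic cell progenitor (MDP) class. They were counted in 3 libraries of whole BM, from naive mice, from mice 2 days after cyclophosphamide (D2 CTX) and from mice 7 days after it (D7 CTX). A cell was a member if it held at least 1 unique molecular identifier (UMI, 1 counted transcript molecule) of F13a1 and at least 2 UMIs of Ass1 and Itga1 together. It also had to have less than 1% of its UMIs from the neutrophil granule genes Mpo, Elane, Prtn3 and Ctsg, no UMI of the B cell gene Cd79a, and fewer than 3 UMIs of the plasmacytoid dendritic cell gene Siglech. In all, 689 of 21520 kept cells met this rule, namely 206 naive, 126 D2 CTX and 357 D7 CTX cells. Because the members were chosen by the UMIs of these 9 genes, the levels of those genes are given below as a description only.

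All mice were of the BALB/c strain, purchased at 4 to 8 weeks of age, and both sexes were used in the study as a whole. CTX, an alkylating drug that crosslinks DNA, was injected intraperitoneally at 150 mg/kg, and naive mice were untreated. Each library pooled equal numbers of live, red cell-lysed BM cells, entered in the labels as CD45+ mononuclear cells, from 3 mice. Sorted CD11b+Ly6Chi monocytes from BM of naive and CTX mice gave 2 more libraries, the CTX mice being taken on day 7 by the study's text, while the labels give no day. With 1 pooled library per condition there was no replicate, so no test between conditions was possible, and a difference between conditions cannot be told apart from a difference between libraries or mice. The intervals in parentheses are at 95% and cover counting error only.

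Monocytes are made in the marrow through a series of progenitors that lose multipotency step by step. MDPs carry the receptors Kit, Flt3 and Csf1r and can give rise to monocytes and dendritic cells. Common monocyte progenitors come after them, have lost Flt3, divide rapidly and already carry Ly6C, and they give the Ly6Chi monocytes that leave the marrow through the chemokine receptor Ccr2. The transcription factor Irf8 directs this path away from neutrophils, and the surface protein Cd34 marks earlier progenitors.

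The genes that chose the cells are described first. F13a1 encodes the A subunit of coagulation factor XIII, which is abundant in monocytes, and lies at chr13:36867178-37050244 on the minus strand (GRCm38, the mouse build also called mm10). Ass1, at chr2:31470207-31520672 on the plus strand, encodes the arginine-synthesising enzyme argininosuccinate synthase, and Itga1, at chr13:114953096-115101964 on the minus strand, encodes the integrin alpha 1 chain of a collagen receptor. Summed over the members, F13a1 stood at 1099 counts per 1000000 UMIs (CPM) in naive, 990 CPM in D2 CTX and 1114 CPM in D7 CTX cells. Ass1 stood at 204, 267 and 201 CPM and Itga1 at 195, 123 and 193 CPM in the same order.

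Many cells lay close to the limits of the rule. Of the members, 58 naive, 15 D2 CTX and 119 D7 CTX cells held exactly 2 UMIs of Ass1 and Itga1, and 82, 17 and 171 cells that met all else held exactly 1. Another 59 naive, 124 D2 CTX and 31 D7 CTX cells lacked only F13a1. The granule genes took between 0.5% and 1% of UMIs in 16, 28 and 34 members, and between 1% and 2% in 6, 22 and 38 cells just outside. The D2 CTX library thus had few cells at the Ass1 and Itga1 limit, many cells that missed F13a1 alone, and, for its number of members, many near the granule limit.

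Irf8 and Ms4a6c were given as markers of the class but were not used to choose the cells. Irf8 was present throughout, at 558 CPM in naive, 460 CPM in D2 CTX and 599 CPM in D7 CTX cells. Ms4a6c, a membrane protein gene of the monocyte lineage, stood at 1159, 444 and 1149 CPM, lower by 1.38 log2 units at D2 CTX (log2 ratio -1.38, -1.48 to -1.30). After each cell had been thinned at random to 2000 UMIs, Ms4a6c was seen in 86.8% of members from naive BM, 56.8% from D2 CTX and 87.0% from D7 CTX, and in 1.08% to 1.67% of the B lineage cells of the same libraries. The B lineage cells, at least 2 UMIs of Cd79a each, should lack the gene, and their share gives the background from free RNA in the droplets.

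Of the receptors of MDPs, Kit and Flt3 were low in naive and D7 CTX BM and Csf1r was present. Kit, the stem cell factor receptor, stood at 3.88 CPM in naive, 32.6 CPM in D2 CTX and 2.23 CPM in D7 CTX cells. After thinning it was found in 0 of 204 naive cells (0% to 1.79%), in 10 of 125 D2 CTX cells (8.0%, 3.90% to 14.2%) and in 0 of 355 D7 CTX cells (0% to 1.0%). It was found in no thinned cell of the monocyte gate in any of the 3 libraries, and in 0.446%, 0.987% and 3.89% of B lineage cells, whose early stages can make Kit themselves. The higher Kit level at D2 CTX was not seen in 2 subsets described below, where the intervals overlapped. In members without a UMI of Cd34 it was 1.69 CPM at D2 CTX against 3.08 CPM in naive. In members of 8000 to 20000 UMIs it was 0 against 2.44 CPM. Flt3, the FLT3 ligand receptor, stood at 12.1, 24.3 and 8.94 CPM and was seen in 1.47%, 2.40% and 2.25% of thinned members. Csf1r, the M-CSF receptor, stood at 141, 84.5 and 142 CPM and was seen in 23.5%, 16.0% and 26.2% of thinned members, against 0.446%, 0.423% and 0% of B lineage cells. The monocyte genes Ly6c2, with 1272, 421 and 1132 CPM, and Ccr2, with 809, 387 and 895 CPM, were abundant in naive and D7 CTX cells. With Kit in no thinned cell and Flt3 low in naive and D7 CTX members, these 2 receptors went against the MDP label there, while Csf1r and Irf8 did not, and the cells are called here by the genes of the rule.

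**Figure D1:**
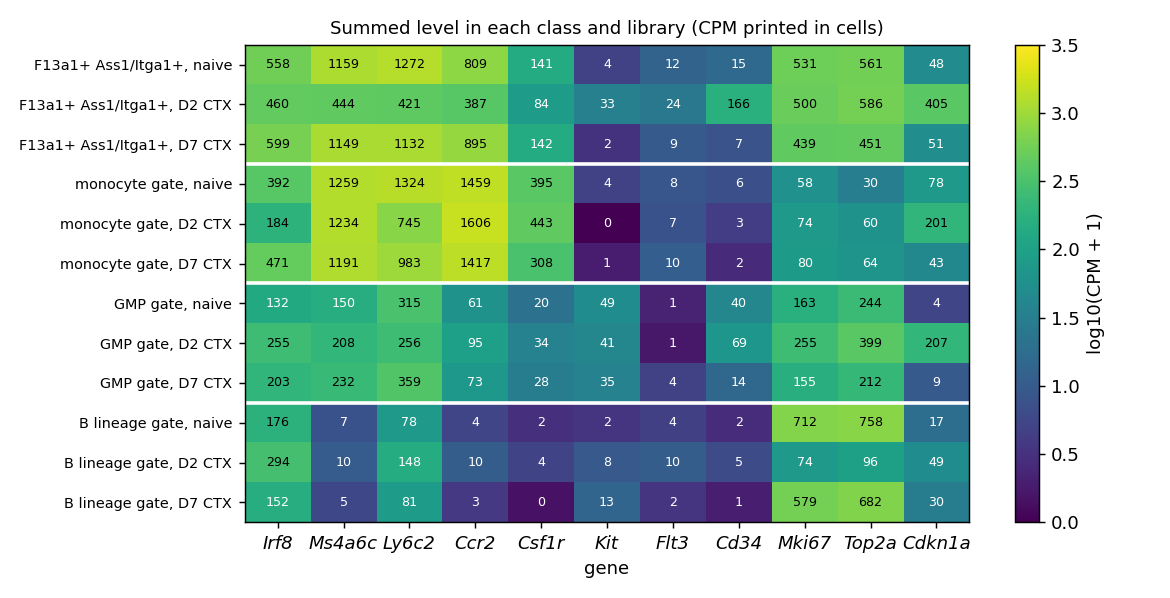
Level of 11 genes, in CPM, pooled over all cells of each class and whole BM library, for the F13a1+ Ass1/Itga1+ cells and for gates of monocytes, granulocyte-monocyte progenitors (GMPs) and B lineage cells (color: log10 of CPM + 1). Kit and Cd34 are low in naive and D7 CTX members and higher at D2 CTX, Mki67 and Top2a are high in the members and low in monocytes, and Cdkn1a is high in D2 CTX members.

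Compared with monocytes of the same libraries, the members were set apart by the genes of cell division. Monocytes were taken as cells with at least 1 UMI of Csf1r and 2 of Ly6c2 but none of Ass1 or Itga1, with little granule and complement C1q RNA. Of 2799 genes at 50 CPM or more in one of the classes in every library, 173 (6.18%) were at least 1 log2 unit higher in the members in all 3 libraries and 111 (3.97%) at least 1 unit lower. The 10 highest all serve mitosis or the cell cycle. They were Tacc3, Spc24, Ccna2, Aurka, Cenpf, Ccnb1, Ube2c, Kif20b, Nusap1 and Tpx2, and their smallest log2 ratio over the 3 libraries, by which they were ranked, was 3.31 for Tacc3, a spindle protein gene, and 3.06 for Ube2c, which tags mitotic proteins for destruction. The 10 lowest were Retnlg, Apoe, Ifi44, Gm5483, BC100530, Slfn5, Isg15, Slfn1, Pla2g7 and Clec4e, again ranked by the ratio nearest 0, which for Retnlg was -3.26. Retnlg, a resistin-like gene typical of neutrophils, stood at 4556, 9112 and 7761 CPM in the monocyte gate itself.

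In total, 95 genes of DNA replication and mitosis summed to 11577 CPM (11439 to 11717) in naive, 11586 CPM (11475 to 11698) in D2 CTX and 10256 CPM (10158 to 10356) in D7 CTX members. The monocyte gate held 1801, 1305 and 1951 CPM. The median member of naive BM held 10077.5 UMIs and the median monocyte 5366. Among cells of 5000 to 10000 UMIs the members held 4466, 7586 and 4357 CPM and the monocytes 1491, 701 and 1275 CPM, so the members were the higher class in each library at this depth too. Mki67, the proliferation antigen Ki-67, stood at 531, 500 and 439 CPM and Top2a, the DNA topoisomerase of dividing cells, at 561, 586 and 451 CPM. The summed level at D2 CTX differed from naive by 0.00 log2 units (-0.02 to 0.02), and that at D7 CTX by -0.17 (-0.20 to -0.15). Under the processing alternatives the D2 CTX value lay between -0.23 and 0.32, and among the cells of 5000 to 10000 UMIs, 83 naive and 15 D2 CTX members, it was 0.76 (0.66 to 0.87). The D7 CTX value moved between -0.43, with cells thinned to 2000 UMIs, and -0.079, with median scaling. Among the cells of 5000 to 10000 UMIs, with 157 D7 CTX members, it was -0.035 (-0.10 to 0.03). The sorted libraries gave 0.071, so neither the D2 CTX nor the D7 CTX direction is settled.

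The share of members was lowest at D2 CTX and highest at D7 CTX. They made up 2.90% (2.52% to 3.32%) of the 7104 kept cells of naive BM, 2.06% (1.72% to 2.44%) of the 6126 from D2 CTX and 4.31% (3.88% to 4.77%) of the 8290 from D7 CTX. Against the same naive library, D2 CTX had a log2 ratio of -0.50 (-0.83 to -0.17) and D7 CTX one of 0.57 (0.32 to 0.83). A rule in whole UMIs is met more easily by deep cells, and the median UMIs of a kept cell were 3953.5 (naive), 3033.5 (D2 CTX) and 7189.5 (D7 CTX). With every cell thinned to 2000 UMIs the members were 41 of 5951 naive cells (0.689%), 26 of 4582 D2 CTX cells (0.567%) and 75 of 8045 D7 CTX cells (0.932%). The log2 ratios were then -0.28 (-1.05 to 0.46) and 0.44 (-0.13 to 1.02), the same order with intervals that include 0.

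The share also depends on the other cells in the marrow, whose B cells were few at D7 CTX. Among cells without lymphoid or erythroid counts the members were 6.26% (naive), 2.94% (D2 CTX, log2 ratio -1.09, -1.47 to -0.72) and 8.30% (D7 CTX, log2 ratio 0.41, 0.15 to 0.67). This set left out 38 of the 126 D2 CTX members, 33 of which held at least 2 UMIs of Nkg7, a gene of cytotoxic lymphocytes. The study also lists NKG7 among immature neutrophil markers of a human monocyte cluster after chemotherapy, so this gene alone does not make a member lymphoid. Nkg7 stood at 25 CPM in naive, 74.7 CPM in D2 CTX and 19.9 CPM in D7 CTX members. For comparison, GMPs, gated by at least 1% of UMIs from the same granule genes, made up 1.94%, 0.702% and 4.39% of the kept cells.

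**Figure D2:**
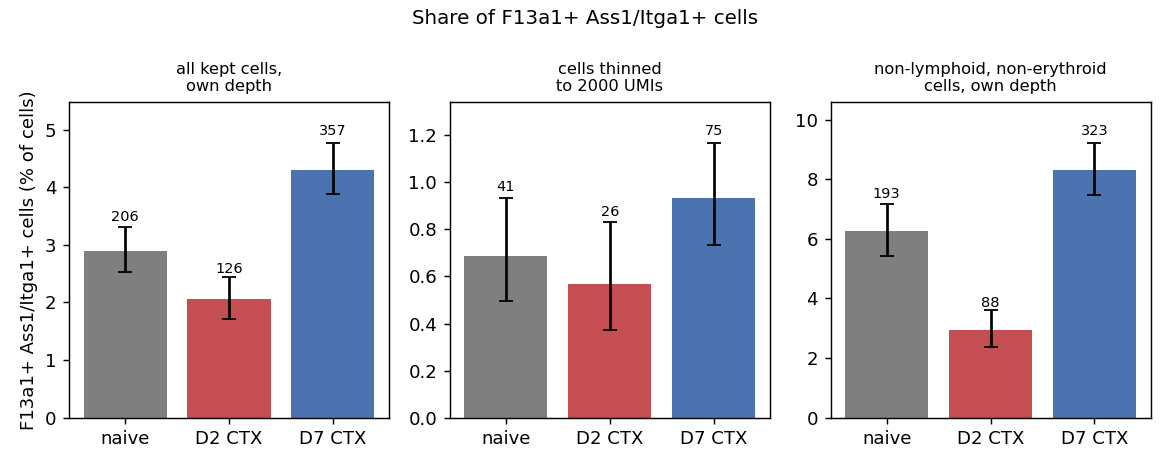
Share of F13a1+ Ass1/Itga1+ cells in each whole BM library, in percent of all kept cells, of cells thinned to 2000 UMIs, and of cells without lymphoid or erythroid counts. Bars show the share, error bars the exact 95% interval and numbers the cells counted. D2 CTX is the lowest and D7 CTX the highest bar in each panel, with overlapping intervals after thinning.

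The members of the D2 CTX library were much larger in RNA than those of the other libraries. Their median was 24527.5 UMIs, beside 10077.5 in naive BM and 10232 on day 7, and in library order 6.31%, 60.3% and 5.60% of members held over 20000 UMIs. The GMP gate moved in the same direction, with medians of 11177, 31686 and 10041 UMIs, while the monocyte gate did not, with 5366, 5136.5 and 6366. At an equal 2000 UMIs the members had a median of 1033, 1045 and 1012 detected genes. Mitochondrial RNA was a median of 4.14%, 5.68% and 4.53% of their UMIs. Scrublet scores marked 12 of 206 naive members as likely doublets (5.83%), 6 of 126 D2 CTX members (4.76%) and 41 of 357 D7 CTX members (11.5%), beside 5.69%, 4.90% and 6.63% of all kept cells. No member barcode was shared among the 3 whole BM libraries. For each pair of a whole BM and a sorted library, 2 to 6 member barcodes also occurred in the other library, none as a member of both.

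Markers of other cell types were present at levels that differed between the libraries. The 10 neutrophil markers summed to 2270 CPM in naive, 1949 CPM in D2 CTX and 9120 CPM in D7 CTX members, with none at 0 and Camp the most abundant at 951, 565 and 3679 CPM. The 10 erythroid markers summed to 1725, 78.9 and 203 CPM, led in naive by Hbb-bs at 831 CPM, with 0, 2 and 1 of them at 0. A single cell held 1375 of the 1926 Hbb-bs UMIs of naive members. The 12 classical dendritic cell markers summed to 282, 181 and 116 CPM and the 11 plasmacytoid markers to 192, 345 and 155 CPM. The latter were led by Bst2 and stood at 1324, 2215 and 739 CPM in B lineage cells.

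The 10 B lineage markers summed to 262, 183 and 207 CPM, led by Ighm, with 2, 2 and 4 at 0. The 12 T and NK cell markers summed to 64.3, 87.3 and 60.8 CPM, led by Gzma, Nkg7 and Cd3d in turn, and the 12 macrophage markers to 46.6, 48.0 and 47.9 CPM, led by Hmox1. The 7 basophil and mast cell markers summed to 68.2, 28.2 and 1.74 CPM and the 8 megakaryocyte markers to 4.31, 6.97 and 50.9 CPM. The most abundant basophil marker was Prss34, Gata2 and Mcpt8 in turn, and Pf4 led the megakaryocyte markers in naive and D7 CTX members. At 0 were 4, 1 and 5 of the T and NK cell markers, 4, 3 and 5 of the macrophage, 1, 4 and 4 of the basophil, 4, 3 and 0 of the megakaryocyte, 3, 0 and 1 of the classical dendritic and 4, 2 and 2 of the plasmacytoid markers. Among these lists the neutrophil markers in every library and the erythroid markers in naive cells exceeded 400 CPM, and the part of other cells' RNA in the results that follow was not tested.

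Levels of 6327 genes were compared between D2 CTX and naive members, those with at least 50 UMIs over the 2 libraries and at least 20 CPM in 1 of them, the genes of the rule left out. A ratio is log2 of CPM + 1 over CPM + 1, its interval is that of the counts, and a gene was counted as higher or lower at 1 log2 unit or more. At D2 CTX 465 genes (7.35%) were higher and 232 (3.67%) lower, with a median of 0.08 over all. The 10 highest were Phlda3, Enho, Serpine2, Fkbp11, Hlf, Sox4, Zmat3, Adgrg1, Hmga2 and Gm10076. The 10 lowest were Prss34, Car1, Ccl5, Hist1h2an, Gzma, Upb1, Hist2h2bb, Hist4h4, Fam89a and Cd209a. D7 CTX over naive, which shares the naive library, gave 60 higher genes (1.03%) and 23 lower ones (0.396%) of 5801, with a median of -0.09, so far fewer genes stood apart from naive on day 7 than on day 2.

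The filter itself fixes some directions, since a gene that reached 20 CPM in 1 library alone had to be higher there. At D2 CTX 797 genes entered through the D2 CTX library alone and 335 through naive alone. Of the 5195 genes at 20 CPM or more in both libraries 159 were higher (3.06%) and 143 lower (2.75%). On day 7 the genes at this level in both libraries were 5157, with 28 higher (0.543%) and 4 lower (0.0776%). Several lists are given on both bases below.

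Targets of the transcription factor p53, which is activated by DNA damage, were mostly higher at D2 CTX. Of 30 genes of the list in the files 20 entered, and 16 of these were higher and none lower, with a median log2 ratio of 1.87. Since 11 of the 20 entered through the D2 CTX library alone, this count and median were partly fixed by the filter, and of the 9 genes at 20 CPM or more in both libraries 5 were higher and none lower. Phlda3, an inhibitor of the kinase Akt, had 4 UMIs in naive (1.73 CPM), 353 in D2 CTX (98.4 CPM) and 3 in D7 CTX members (0.745 CPM), a ratio of 5.19 at D2 CTX with an interval of 4.47 to 7.72. It was found in 93 of 126 D2 CTX members and in 4 of 206 naive members, so it was not carried by a few cells. Zmat3, which encodes an RNA-binding zinc finger protein, stood at 2.16, 43.8 and 2.98 CPM, a ratio of 3.83 (3.09 to 5.99).

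Ccng1, which encodes cyclin G1, stood at 37.1, 373 and 32.3 CPM (3.30, 3.01 to 3.66), high at D2 CTX alone. Cdkn1a, which encodes the cell cycle inhibitor p21 and lies at chr17:29090976-29100727 on the plus strand (GRCm38), stood at 48.3, 405 and 51.4 CPM (3.04, 2.79 to 3.36). After thinning to 2000 UMIs it was seen in 9.80%, 54.4% and 9.86% of the members, and in 2.42%, 3.81% and 4.44% of B lineage cells. Mdm2, the ubiquitin ligase that limits p53, stood at 40.6, 104 and 35 CPM (1.34). D2 CTX was the high library for each of these genes, and naive and D7 CTX lay close together.

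Of 9 genes of the BCL2 family, which control apoptosis, 4 were higher and none lower. The D2 CTX library alone brought in 3 of the 9, and 2 of the 6 at 20 CPM or more in both libraries were higher. Bax stood at 158, 442 and 144 CPM (1.47, 1.32 to 1.65) and Bbc3, which encodes the BH3-only protein PUMA, at 12.1, 40.7 and 14.1 CPM (1.67, 1.16 to 2.39). The other two were Pmaip1, the NOXA gene, with a ratio of 1.99, and Bcl2 with 1.68, at 26.3, 86.7 and 21.3 CPM. Bcl2 was the only survival gene of the 4, the other 3 being pro-apoptotic. Bax, Bbc3 and Pmaip1 belong to the p53 list as well, and Bcl2 does not.

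The p53 list was high in most single members of the D2 CTX library. Summed per cell it had a median of 817 CPM in naive cells (quartiles 581 and 1058), 2431 CPM in D2 CTX cells (1728 and 2988) and 847 CPM in D7 CTX cells (612 and 1102), so the lower D2 CTX quartile lay above the upper naive quartile. Its log2 ratio at D2 CTX, taken over the summed list, was 1.52 (1.45 to 1.59) in the members. It was 1.77 (1.66 to 1.89) in the GMP gate, 1.16 (1.05 to 1.27) in the plasmacytoid gate, 0.72 (0.56 to 0.88) in the monocyte gate and 0.65 (0.61 to 0.69) in B lineage cells. The members and GMPs thus stood above the other 3 gates, beyond counting error. At D7 CTX the ratio in the members was 0.07 (-0.01 to 0.15).

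**Figure D3:**
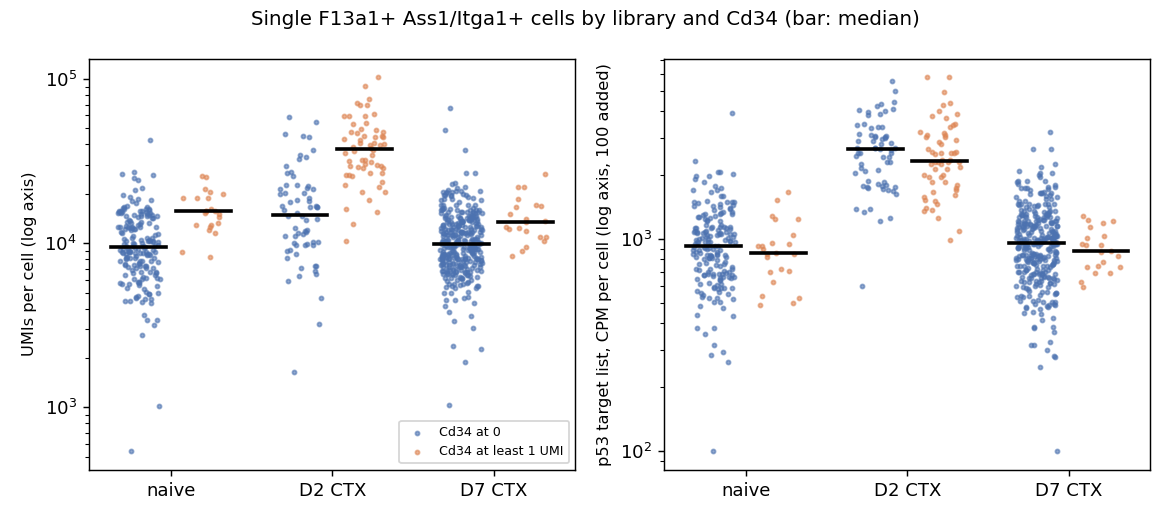
Each point is 1 F13a1+ Ass1/Itga1+ cell, by library and by whether it held a UMI of Cd34, with its total UMIs (left, log axis) and the summed level of the p53 target list in CPM with 100 added (right, log axis), and bars at the medians. D2 CTX cells are shifted upward on both axes, and the p53 shift is present with and without Cd34.

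The start regions of p53 targets were searched for the core letters of a p53 site, to show the sequence beside the values. A match was CATG, CAAG or CTTG followed after 6 bases of any kind by another of these words, a set that reads the same on both strands. RefSeq windows from 250 bases before to 50 after each gene start (GRCm38.p6) held a match in 1551 of 32851 cases (4.72%), and in 5.46% of 27025 genes. Of 22 genes of the p53 list with a window 6 had a match, and 4 of the 13 that were higher at D2 CTX. A match is a description of letters and not evidence of binding. The 4 matches follow, each on the plus strand with the core words in capitals.
Cdkn1a, chr17:29090923-29090952: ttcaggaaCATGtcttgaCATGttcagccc
Bbc3, chr7:16309481-16309510: cccgactgCAAGccccgaCTTGtccccagc
Aen, chr7:78895932-78895961: aagccgggCTTGtccgggCAAGgagcttcc
Gtse1, chr15:85859940-85859969: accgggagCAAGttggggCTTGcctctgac

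The genes beside these sequences differed in level. Aen, an apoptosis-enhancing nuclease gene, stood at 14.2 CPM in naive, 68.3 CPM in D2 CTX and 12.9 CPM in D7 CTX members (2.18 at D2 CTX, 1.73 to 2.83). Gtse1, a G2 and S phase gene, stood at 12.1, 48.2 and 10.2 CPM (1.91, 1.42 to 2.63). The matches of Plk2 and Trp53, the gene of p53 itself, are not printed, since Plk2 was too low to enter, with 9, 52 and 28 UMIs, and Trp53, at 87.6, 114 and 67.5 CPM, was not counted as higher.

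Chaperones of the cytosol and the endoplasmic reticulum were higher at D2 CTX, 11 of 14 entering and none lower, with a median ratio of 1.33, and 10 of 13 of those at 20 CPM or more in both libraries. Among members of 8000 to 20000 UMIs, described below, 4 of 13 were higher and none lower, with a median of 0.54, beside 7.07% higher of all genes. Calr, the gene of calreticulin, stood at 245 CPM in naive, 1213 CPM in D2 CTX and 201 CPM in D7 CTX members (2.30, 2.18 to 2.44). Hsph1, a heat shock protein gene, stood at 6.90, 84.5 and 14.4 CPM (3.44, 2.89 to 4.44). Hspd1, the mitochondrial chaperonin gene, and Hsp90aa1 had ratios of 1.63 and 1.62. The summed list was higher by 1.26 log2 units in the members (1.23 to 1.29), by 0.85 in GMPs, 0.79 in monocytes, 0.44 in plasmacytoid cells and 0.16 in B lineage cells. Fkbp11, a peptidyl-prolyl isomerase of the secretory pathway, was also among the 10 highest genes, with 1 UMI in naive and 100 UMIs in D2 CTX members (3.5 to 11.3).

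Of 17 genes of DNA repair 3 were higher, beside 7.35% of all genes, and none lower, with a median of 0.53, and 5 of the 17 entered through the D2 CTX library alone. At 20 CPM or more in both libraries were 12, of which 1 was higher. Mgmt, which encodes the enzyme that removes alkyl groups from guanine in DNA, stood at 7.33, 68.3 and 5.96 CPM, a ratio of 3.06 (2.51 to 4.02) at D2 CTX. Msh6, a mismatch repair gene, and Rad18 had ratios of 1.46 and 1.01. In the list of arginine metabolism, to which the rule gene Ass1 belongs, 3 of 9 were higher, namely Srm at 2.16, Odc1 at 1.75 and Slc7a1 at 1.07. None of the list was higher among the members without Cd34 or among those of 8000 to 20000 UMIs, described below, and of the DNA repair genes 1 of 15 and 0 of 9 were. Srm and Odc1 encode enzymes of polyamine synthesis. Of 24 transcription factors 1 counted as higher, beside 7.35% of all genes, namely Myc, with 14.2 CPM in naive and 55.2 CPM in D2 CTX members (1.88).

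Of 13 early progenitor genes that entered 11 counted as higher at D2 CTX. Since 10 of the 13 were under 20 CPM in naive and entered through the D2 CTX library alone, they had to be higher, and nothing is read from the count. Only 3 were at 20 CPM or more in both libraries, and 2 of them were higher, so the values of single genes are given. Cd34 stood at 14.7 CPM in naive, 166 CPM in D2 CTX and 6.95 CPM in D7 CTX members (3.41, 3.0 to 4.04). Sox4, a transcription factor gene of early blood progenitors, stood at 7.77, 124 and 6.45 CPM (3.83, 3.31 to 4.76). Hlf, a stem cell transcription factor gene, had 1, 96 and 3 UMIs (4.28, with an interval of 3.44 to 11.3) and Hmga2, a chromatin protein gene, 2, 84 and 9 UMIs (3.71, 2.86 to 7.83). Myb stood at 178 CPM in D2 CTX against 31.5 CPM in naive members (2.46). Among the members of 8000 to 20000 UMIs, described below, the Cd34 levels had overlapping intervals. They were 13.4 CPM (8.41 to 20.3) in naive and 18.7 CPM (8.95 to 34.3) in D2 CTX cells. In that set Hlf stood at 0 and 1.87 CPM, Hmga2 at 0 and 7.47 CPM, and Sox4 at 4.88 and 78.4 CPM. Ms4a3, a gene of granulocyte-monocyte progenitors in the azurophil list, stood at 16.0, 135 and 30.5 CPM (3.0, 2.59 to 3.6).

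Of 33 genes of monocyte maturation 11 were lower and 2 higher at D2 CTX, beside 3.67% and 7.35% of all genes, and 24 lay below 0, with a median of -0.81. Through the D2 CTX library alone 2 of the 33 entered. Of the 31 at 20 CPM or more in both libraries 11 were lower and 1 higher, beside 2.75% and 3.06% of all genes. None was lower among the members without Cd34 or among those of 8000 to 20000 UMIs, described below. Ly6c2 was lower by 1.59 log2 units, at 1272 CPM in naive and 421 CPM in D2 CTX members (log2 ratio -1.59, -1.69 to -1.51). S100a4 stood at 1129, 353 and 825 CPM (-1.67) and Lyz2, the gene of lysozyme, at 15147, 5102 and 21189 CPM (-1.57). Of the transcription factors Irf5 (-1.43) and Klf4, which is needed for monocyte maturation (-1.38), counted as lower, and of 9 cytokine receptors Csf2ra (-1.25). Among the members without Cd34 no gene of either list was lower. Of 24 transcription factors 3 were higher, beside 4.3% of all genes, and 1 of the 22 at 20 CPM or more in both libraries. In those of 8000 to 20000 UMIs 5 of 23 transcription factors were higher and 1 lower, beside 7.07% and 5.06% of all genes. At 20 CPM or more in both libraries 4 of 22 were higher and 1 lower. Of 9 cytokine receptors 1 was higher and none lower in that set. Over all members the 2 higher maturation genes were Vcan and Chil3. Vcan was under 20 CPM in naive and entered through the D2 CTX library alone, so it had to be higher. Vcan, the gene of the matrix proteoglycan versican, stood at 6.90 CPM in naive, 87.3 CPM in D2 CTX and 4.96 CPM in D7 CTX members (3.48, 2.94 to 4.48). Chil3, a chitinase-like protein gene, stood at 91.0, 212 and 563 CPM (1.21). Vcan was seen in 50 D2 CTX members and in 9 naive members.

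**Figure D4:**
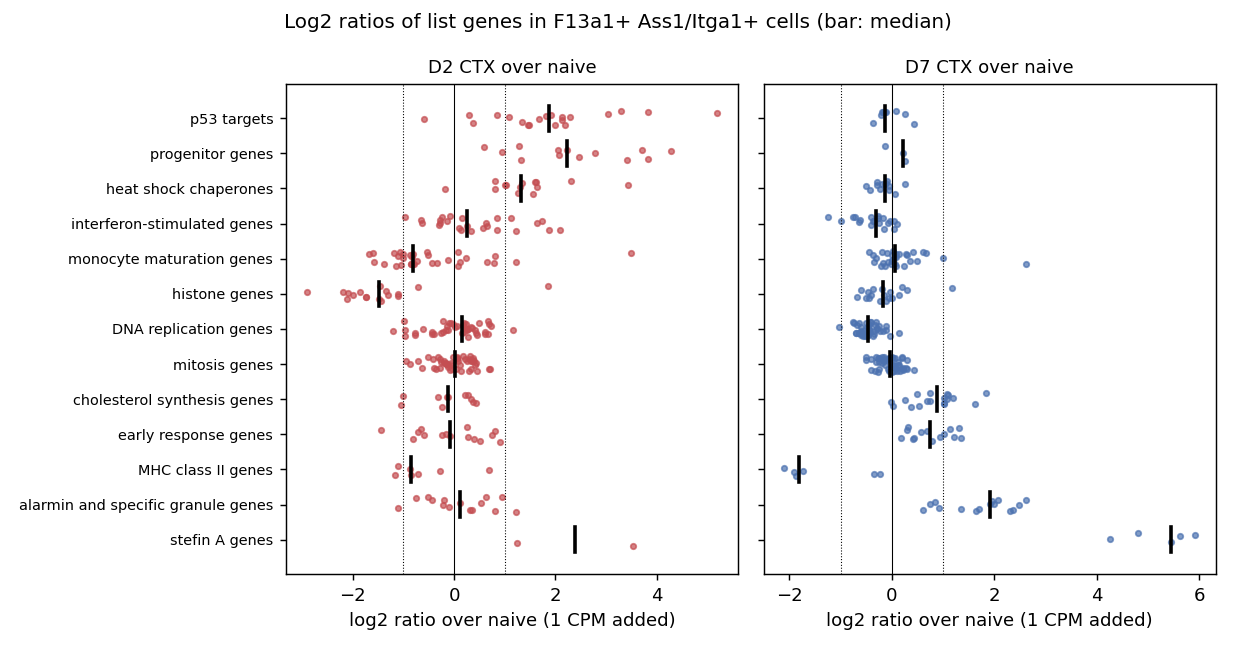
Log2 ratio over naive of each gene of 13 lists in the F13a1+ Ass1/Itga1+ cells, at D2 CTX (left) and D7 CTX (right). Points are genes, bars list medians, and dotted lines mark 1 log2 unit. At D2 CTX the p53, progenitor and chaperone lists lie to the right and the histone and maturation lists to the left, and at D7 CTX the stefin A, granule, cholesterol and early response lists lie to the right. The filter fixed the side of genes that entered through 1 library alone. These included 11 of 20 p53, 10 of 13 progenitor and 6 of 17 histone genes at D2 CTX. At D7 CTX they included all 5 stefin A, 8 of 18 cholesterol and 2 of 14 early response genes.

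The 126 D2 CTX members did not form a uniform set. Cd34 was found in 60 of them (47.6%), in 23 of 206 naive members (11.2%) and in 21 of 357 D7 CTX members (5.88%). At D2 CTX the cells with Cd34 had a median of 37433 UMIs and those without it 14949.5. Since a deeper cell shows a UMI more readily, the share was also taken at 2000 UMIs, where it was 2.45%, 16.8% and 1.13%, with 0.446%, 0.282% and 0.556% in B lineage cells. Among members of 8000 to 20000 UMIs the level of Cd34 was 13.4 CPM in naive and 18.7 CPM in D2 CTX cells, as given above. The members were then divided by Cd34, a split chosen after the values had been seen.

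The progenitor genes Sox4, Kit, Hlf and Myb, of the same list as Cd34, were higher in the D2 CTX members with Cd34 than in those without. Sox4 stood there at 182 CPM (165 to 200), against 5.06 CPM (1.86 to 11) in those without. Kit stood at 47.9 against 1.69 CPM and Hlf at 39.2 against 1.69 CPM. Myb stood at 242 against 48.1 CPM, the latter above the 26.2 CPM of naive cells without Cd34. The monocyte genes were in the reverse order, with Ly6c2 at 225 against 818 CPM, Ccr2 at 205 against 755 CPM and Lyz2 at 1957 against 11466 CPM. Vcan was 16.7 CPM in the cells with Cd34 and 230 CPM in the cells without.

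The p53 targets were high on both sides of the split. Cdkn1a stood at 346 CPM (323 to 370) in the D2 CTX members with Cd34 and at 524 CPM (483 to 566) in those without, against 48.7 and 48.2 CPM in naive cells. Ccng1 stood at 365 and 390 CPM and Phlda3 at 101 and 92.7 CPM. Per cell the p53 list had a median of 2229 CPM with Cd34 and 2543 CPM without. Calr was more abundant in the D2 CTX cells with Cd34, at 1446 CPM (1398 to 1494), than in those without, at 741 CPM (693 to 792), and both lay above the 398 and 216 CPM of naive cells.

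**Figure D5:**
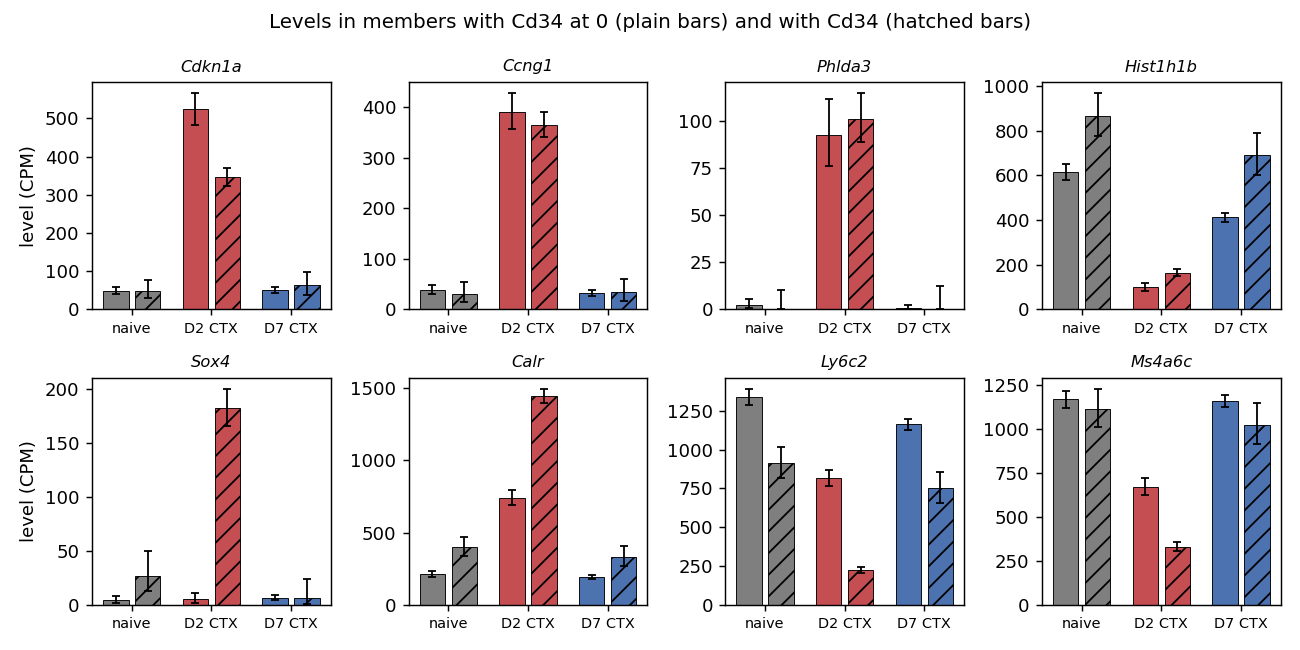
Level of 8 genes in CPM, with exact 95% intervals, in members with Cd34 at 0 (plain bars) and with Cd34 (hatched bars) of each whole BM library. Cdkn1a, Ccng1 and Phlda3 are high and Hist1h1b low in both kinds of D2 CTX cells, whereas Sox4 is high only in those with Cd34 among the groups shown.

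With only the members without Cd34, 183 naive and 66 D2 CTX cells, 263 of 6119 genes were higher (4.3%) and 131 lower (2.14%) at D2 CTX. At 20 CPM or more in both libraries were 5202, with 132 higher (2.54%) and 53 lower (1.02%). The p53 list had 13 of 18 genes higher (median 1.56), or 4 of 9 at this level, and the chaperones 5 of 14 (0.83). The maturation genes, of which 11 were lower among all members, had none lower and 6 higher of 33, with a median of 0.00. Ly6c2 and Ms4a6c remained below naive at 818 against 1340 CPM and 671 against 1168 CPM, and Ccr2, at 755 against 826 CPM, was closer to it. Interferon-stimulated genes were higher in 6 of 25 cases among all members, but 5 of the 25 entered through the D2 CTX library alone and 2 through naive alone, and 1 of the 18 at 20 CPM or more in both was higher. Without Cd34 14 of 26 were higher, and 8 of the 19 at this level in both. Among members of 8000 to 20000 UMIs, 132 naive and 40 D2 CTX cells, 373 of all 5275 genes were higher (7.07%) and 267 lower (5.06%). Of 4956 at 20 CPM or more in both libraries 289 were higher (5.83%) and 158 lower (3.19%). There 18 of 25 interferon-stimulated genes were higher, and 11 of the 18 at this level in both. This set had 8 of 11 p53 targets higher, or 5 of 8 at this level, and 4 of 13 chaperones (median 0.54). Of its 33 maturation genes 9 were higher and none lower.

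Histone genes were mostly lower at D2 CTX, 15 of 17 lower and 1 higher, with a median of -1.48. Through naive alone 6 of the 17 entered, and of the 11 at 20 CPM or more in both libraries 9 were lower and 1 higher. Hist1h1b, which encodes a linker histone made in S phase, stood at 656 CPM in naive, 142 CPM in D2 CTX and 433 CPM in D7 CTX members (-2.20, -2.35 to -2.06). Hist2h2bb had 49, 7 and 76 UMIs (-2.91, -4.83 to -2.29), and Hist1h1e stood at 206, 61.1 and 175 CPM (-1.74). The exception was Hist1h2ap, at 72.9, 266 and 54.6 CPM (1.85). The libraries were primed on poly(A) tails, which most histone messages made in S phase lack, so these levels cover only a part of those messages. Hist1h1b was low in D2 CTX members with Cd34, at 164 CPM against 868 CPM in naive, and in those without, at 98.6 CPM against 615 CPM.

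The other genes of the cell cycle did not follow the histones. Of 44 DNA replication genes 1 was higher (Prim2, 1.16) and 1 lower (Ccne2, the gene of cyclin E2, -1.20) at D2 CTX, with a median of 0.17, and none of 48 mitosis genes passed 1 log2 unit in either direction, with a median of 0.01. Mcm3, a subunit of the replicative helicase, stood at 141, 225 and 92.1 CPM, and Pcna, the sliding clamp of DNA polymerase, at 133, 100 and 82.4 CPM. In members without Cd34, 7 of 43 replication genes were lower and 1 higher (median -0.41), beside 2.14% lower among all genes of that set. At 20 CPM or more in both libraries 5 of 38 were lower, beside 1.02%. In those of 8000 to 20000 UMIs 12 of 42 were lower and none higher (-0.64), beside 5.06% lower among all genes, and 8 of 35 at 20 CPM or more in both, beside 3.19%. The summed histone list was lower by 0.95 log2 units in the members at D2 CTX (log2 ratio -0.95, -0.99 to -0.92). In B lineage cells, whose cell cycle list summed to 13821 CPM before and 2917 CPM 2 days after CTX, the histone ratio was -2.14.

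Several of the lowest genes at D2 CTX were carried by a single naive cell. Prss34, a protease of basophils, had 124 UMIs in naive members, of which 116 were in 1 cell, and none in D2 CTX members, at least 64.0-fold lower against a floor of 3 counts. For Car1, a carbonic anhydrase of erythroid cells, 1 cell held 137 of 147 UMIs, for the chemokine Ccl5 181 of 218, and for the granzyme Gzma 48 of 60. These 4 genes describe those cells and not the set as a whole. Enho, on the opposite side, had no UMI in naive and 81 in D2 CTX members, at least 17.4-fold higher against the same floor.

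At D7 CTX the genes with the highest ratios were stefin A genes, which encode small inhibitors of cysteine proteases and are typical of neutrophils in mice. The 5 that entered did so through the D7 CTX library alone, so that they had to be higher, with a median of 5.44. Stfa2 had 239 UMIs in D7 CTX members, beside 16 at D2 CTX and none in naive, at least 45.8-fold higher at D7 CTX against a floor of 3 counts, and was found in 19 of 357 cells. Stfa3 had 2, 2 and 365 UMIs (5.62, 4.85 to 9.77), in 33 of the D7 CTX cells. The list summed to 20.7, 94.5 and 646 CPM in the members, to 69.7, 409 and 477 CPM in B lineage cells, to 54.0, 374 and 1490 CPM in plasmacytoid cells and to 533, 2076 and 3328 CPM in the monocyte gate. These near-identical genes share sequence, and reads may be divided between them.

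Alarmins and granule genes of neutrophils were higher as well, 11 of 15 entering and none lower, with a median of 1.91. S100a8 went from 4628 in naive to 17423 CPM on day 7 (1.91), Ngp from 688 to 3391 CPM (2.30) and Chil3 from 91.0 to 563 CPM (2.61). Ltf, the gene of lactoferrin, stood at 120 and 677 CPM (2.48), but its ratio turned to -0.19 after thinning to 2000 UMIs. The 15 genes and 1 that did not enter summed to 12510 CPM in naive, 11856 CPM in D2 CTX and 47210 CPM in D7 CTX members. B lineage cells, which do not make them, held 29374, 50518 and 39508 CPM, and the plasmacytoid gate 14420, 34213 and 91545 CPM. By CPM, members of the first 2 libraries thus lay below both of these gates, and D7 CTX members lay between them. The B lineage cells were smaller, with median UMIs of 2876.5, 2591 and 8509 in library order, beside 10077.5, 24527.5 and 10232 for the members. The same number of free RNA UMIs gives a higher CPM in a smaller cell. The CPM values therefore do not place the members above or below the background, which was not tested per cell.

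Genes of cholesterol metabolism were higher at D7 CTX, 9 of 18 entering and none lower, with a median of 0.88. Of these 18, 8 entered through the D7 CTX library alone, and of the 10 at 20 CPM or more in both libraries 4 were higher and none lower. Sqle, the gene of squalene epoxidase, stood at 8.63 CPM in naive, 12.5 CPM in D2 CTX and 33.3 CPM in D7 CTX members (1.83, 1.26 to 2.70), and was seen in 18 of 206 naive and 92 of 357 D7 CTX cells. Msmo1, the gene of a sterol methyl oxidase, stood at 14.2, 15.9 and 46.2 CPM (1.63, 1.16 to 2.28), and Idi1, that of isopentenyl diphosphate isomerase, at 23.3, 28.4 and 54.9 CPM (1.20, 0.80 to 1.69). The summed list was higher by 0.72 log2 units (0.63 to 0.81) in the members, 0.52 in monocytes, 0.44 in GMPs, 0.44 in B lineage cells and 0.25 in plasmacytoid cells, so it stood above naive in each class.

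Early response genes, which are switched on within minutes of a stimulus and also by cell handling, were higher at D7 CTX in 5 of 14 cases (median 0.74), and in 4 of the 12 at 20 CPM or more in both libraries. Fosb stood at 58.2, 69.7 and 151 CPM (1.36), Dusp1 at 126, 180 and 315 CPM (1.32), Atf3 at 47.5, 89.2 and 112 CPM (1.22) and Jun at 358, 204 and 782 CPM (1.13). Egr1 was the fifth (1.02). The GMP and plasmacytoid gates showed higher sums too, by 1.01 and 0.84 log2 units beside 0.63 in the members, while the monocyte gate differed by 0.21 and B lineage cells by -0.03. Klf2 was the only one of 22 transcription factors counted as higher, at 140 CPM in naive members and 382 CPM on day 7 (1.44).

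MHC class II genes were lower at D7 CTX, 4 of 6 entering with a median of -1.80, and 2 of the 4 at 20 CPM or more in both libraries. H2-Aa stood at 127 CPM in naive, 56.0 CPM in D2 CTX and 28.8 CPM in D7 CTX members (-2.10, -2.46 to -1.82), H2-Ab1 at 54.4, 32.9 and 13.7 CPM (-1.92) and Cd74, the invariant chain, at 192, 107 and 57.1 CPM (-1.74). H2-Eb1 was the fourth (-1.87). Few cells carried these genes, since H2-Aa was found in 14 naive, 8 D2 CTX and 14 D7 CTX members. The sum of the list had a log2 ratio of -0.88 (-0.97 to -0.78) in the members, -1.61 in B lineage cells, -1.09 in the plasmacytoid gate and -0.76 in the monocyte gate, and of 0.44 (0.17 to 0.72), the opposite direction, in the GMP gate. The sorted libraries did not show the lower level. There 4 genes of the list entered and 3 lay above 0, with a median of 0.21. Their summed list had a log2 ratio of 0.079 (0.024 to 0.135). Cd209a, a lectin of monocyte-derived dendritic cells, stood at 42.7, 7.53 and 10.4 CPM (-1.94), a direction that turned after thinning to 2000 UMIs (0.69) and in the sorted libraries (0.16).

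Of 42 DNA replication genes entering at D7 CTX, 1 counted as lower, Ccne2 (-1.03), and none as higher, and none of the 39 at 20 CPM or more in both libraries counted in either direction. In all 41 lay below 0, with ratios from -1.03 to 0.14 and a median of -0.46 against -0.09 over all genes, whereas in the sorted libraries 31 of 41 lay above 0, with a median of 0.09. Mcm5 stood at 144, 172 and 95.1 CPM (-0.59, -0.81 to -0.38) and Pcna at 133, 100 and 82.4 CPM (-0.68, -0.92 to -0.46). The 48 mitosis genes had a median of -0.04. The p53 targets (0 of 9 higher, median -0.13), chaperones (0 of 13, -0.13) and histones (1 of 18, Hist1h2ac, -0.17), which had stood apart on day 2, were close to naive on day 7.

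A few single cells also set values at D7 CTX. Pf4, a platelet chemokine, had 182 UMIs in D7 CTX members, 181 of them in 1 cell, and Car1 had 382 of its 383 UMIs in 1 cell. Lrg1 and Camk2d, the other genes among the 10 highest, had ratios of 2.72 and 2.42, and Camk2d, a calcium-dependent kinase gene, was as high at D2 CTX, with 7.33 CPM in naive, 49.1 CPM in D2 CTX and 43.7 CPM in D7 CTX members. The 10 lowest were Prss34, Ccl5, Gzma, H2-Aa, Cd209a, H2-Ab1, H2-Eb1, Cd74, Spata7 and Isg15.

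The sorted CD11b+Ly6Chi libraries were not used to choose the rule, and many of their cells met it, 971 of 1891 from naive mice (51.3%, 49.1% to 53.6%) and 1477 of 2564 from CTX mice (57.6%, 55.7% to 59.5%). These libraries were deep, with medians of 10299 and 9694 UMIs per kept cell. With every cell thinned to 2000 UMIs, 145 of 1832 (7.91%) and 226 of 2493 (9.07%) met the rule. The log2 ratio was then 0.20 (-0.11 to 0.51), an interval that includes 0. Among their markers Irf8 stood at 505 and 514 CPM, Ms4a6c at 1266 and 1448 CPM and Ly6c2 at 858 and 833 CPM, the last below the 1272 and 1132 CPM of naive and D7 CTX members of whole BM, and Kit was at 0 UMIs in both. Of 5538 genes 3 were higher (0.0542%) and 20 lower (0.361%) in the CTX library. The higher genes included Ngp (3.95) and Camp (3.15), which reached only 26.5 and 25.3 CPM.

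Other differences of whole BM at D7 CTX were smaller or opposite in the sorted cells. Sqle stood at 13.3 CPM in the naive and 24.6 CPM in the CTX library, a ratio of 0.84 beside 1.83 at D7 CTX in whole BM. No stefin A gene entered, with Stfa2 at 0.141 CPM in the naive and 0 CPM in the CTX library. Of 16 early response genes 4 were lower and none higher, namely Ier3 (-1.67), Dusp2 (-1.52), Egr1 (-1.15) and Nr4a1 (-1.15). The sorted libraries had Jun at 2417 and 2097 CPM, above the 358 to 782 CPM reached by naive and D7 CTX members of whole BM. The 95 cell cycle genes summed to 9839 CPM in the naive and 10336 CPM in the CTX library, a log2 ratio of 0.07 (0.06 to 0.08).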

How the data were processed

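The authors deposited raw UMI counts per gene and barcode, without normalization, for 5 libraries of 10x 3′ V3 reagents. The submitters' processing notes name Cell Ranger 3.1 and Seurat 5.0, and the study states more cells for each whole BM library than these files hold barcodes (7649 naive, 6608 D2 CTX, 8605 D7 CTX, holding 47086837, 34764874 and 68459527 UMIs). Cells with at least 200 genes and under 20% mitochondrial UMIs were kept, as in the study's methods. The tools were Python 3.11.15, pandas 2.3.3 and numpy 2.4.6 for sums over members, scipy 1.17.1 for intervals, scanpy 1.11.5 for doublet scores and matplotlib 3.10.9 for plots. Intervals are exact (Clopper-Pearson for shares, Poisson for levels, conditional for ratios). The members and the 36 gene lists were chosen with earlier results of these data known. Named genes are the markers, up to 4 extremes of each list, the most abundant progenitors, receptors and factors, and the 10 genes at each end of every comparison (hemoglobin, immunoglobulin and sex-linked marker genes apart). Genes named beside a count of 5 or fewer, and those of the Cd34 split, were chosen after their values were seen. On simulated data with a step of 1.5 log2 units, 196 of 198 changed genes were recovered for D2 CTX (5764 genes entering) and 195 of 198 for D7 CTX (5744). The simulated counts held counting error only, with no differences between cells, mice or libraries. They check the calculation and say nothing on how far the calls hold beyond these libraries. In all, 19 alternatives were run, 3 of them added after the data had been seen. Some genes of the lists count in their totals but are not reported here.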

Additional observations from a re-analysis of the deposited data

Results flagged for a closer look

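Spata7 was opposite in sign at the 2 times, which was not tested. Its log2 ratio over naive was 1.0 at D2 CTX and -1.52 at D7 CTX, with 54.4 CPM in naive, 110 CPM in D2 CTX and 18.4 CPM in D7 CTX members. A single cell held 48 of the 126 naive UMIs, and both ratios share the naive library.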

How the results depend on the processing

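No paired analysis was possible because each condition is 1 pooled library. Of 120 recomputed main values 80 kept their direction and size, and of 1295 named gene ratios 1049 did, 228 moved and 18 reversed. Some could not move. The changed filters on low genes and the limit by the B lineage level alter which genes enter, not the ratio of a gene. Named gene ratios under them count as kept. The cell cycle ratio likewise could not change under the changed low filters or a pseudocount of 0.1 CPM. The cause of these moves was not tested. Thinning to 2000 UMIs, which left 375 and 639 genes, gave 15 higher and 29 lower genes at D2 CTX, 7 and 15 at D7 CTX, cell cycle ratios of 0.13 and -0.43, and reversed Ltf (-0.19), Cd209a (0.69) and Spata7 (4.79) at D7 CTX. No low filter gave 1552 and 524 genes at D2 CTX and 334 and 235 at D7 CTX, and a filter of 200 UMIs gave 208 and 147, 34 and 10. Genes at least 2 times the B lineage level gave 166 and 143, 19 and 7, a D2 CTX cell cycle ratio of 0.32 and, with no cycle gene remaining, none at D7 CTX. A granule limit of 0.5% gave 138 lower genes at D2 CTX and the mean of the cells' CPM 151. Members with Cd34 at 0 gave 263 and 131 at D2 CTX and reversed Kit (-0.60) and, at D7 CTX, Pf4 (-1.86). The share at D2 CTX was -1.09 without lymphoid and erythroid cells. The cell cycle ratio at D2 CTX was -0.11 with Ass1 and Itga1 at 3 UMIs, 0.15 at 1 UMI, 0.077 and -0.028 at granule limits of 0.5% and 2%, -0.081 with median scaling, 0.19 with the cells' mean and -0.23 at 8000 to 20000 UMIs. At D7 CTX it was -0.080 at 3 UMIs, -0.22 at 1 UMI, -0.21 at 0.5%, -0.079 with median scaling, -0.12 without the 20 most abundant genes, -0.13 with Cd34 at 0 and -0.12 at 8000 to 20000 UMIs. That range reversed Kit (-1.78), Ccr2 (0.20), Pf4 (-1.35) and Spata7 (0.093). Ass1 and Itga1 at 1 UMI reversed Gzma (2.15), and leaving out each gene's top cell reversed Pf4 (-1.34). The sorted cells, set beside D7 CTX only, gave 3 higher genes, a cell cycle ratio of 0.071, and reversed Stfa3 (-0.32), Ccl5 (0.29), Cd209a (0.16), Spata7 (0.61), Dusp1 (-0.25), Atf3 (-0.72) and Jun (-0.20).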

Other observations

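Hist1h2ap stood at 4651 CPM in the sorted naive and 2493 CPM in the sorted CTX library, against 72.9 CPM in naive, 266 CPM in D2 CTX and 54.6 CPM in D7 CTX members of whole BM. Cxcl2 and Ccl2, chemokine genes of activated myeloid cells, were among the 20 genes lower in the sorted CTX library. Cxcl2 stood at 555 CPM in the naive and 32.2 CPM in the CTX library (-4.06), and Ccl2 at 249 and 95.7 CPM (-1.37).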
